A study of Mus musculus with 15 samples.

Results

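The effect of how an odorant pair was delivered was compared between 2 pairs of odorants in mouse olfactory epithelium. The comparison rests on 12 of the 15 libraries in the series, 3 in each of 4 groups, and covers all 19229 genes with enough counts to be tested. Acetophenone with decanal was given to the groups A+D and A&D, and octanal with cis-3-hexenol to the groups O+C and O&C. In A+D and O+C, 10 µL of each odorant went onto 1 filter paper, 20 µL in all. In A&D and O&C each odorant had its own paper, and the 2 papers lay about 1 mm apart. The 3 remaining libraries are Control mice, which were given papers without odorant. All mice were wild-type C57BL/6J males of 8 weeks that were housed singly, spent 4 h without odour and were then exposed for 90 min. For each gene the difference A+D minus A&D was set against the difference O+C minus O&C on a log2 scale. This difference of differences, the interaction, is below 0 where the shared paper lowered the level more, or raised it less, in the acetophenone and decanal pair (the A/D pair) than in the octanal and cis-3-hexenol pair (the O/C pair). No group received a single odorant, so no response can be divided between the 2 odorants of a pair. The labels call the 3 libraries of a group biological replicates.

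Each olfactory sensory neuron expresses 1 odorant receptor gene, and odorants that bind the receptor raise cyclic AMP, open ion channels and make the neuron fire. Active neurons phosphorylate ribosomal protein S6, and antibodies to phosphorylated S6 pull down their ribosomes with the messenger RNA being translated. A receptor's transcript is therefore more abundant in the precipitate when the neurons that carry the receptor respond. Immediate early genes, among them Nr4a1 and Fos, are transcribed within minutes of neuronal activity. In such a precipitate, fewer responding cells and less RNA per cell cannot be told apart.

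Libraries held 22704193 to 25287077 counts. Levels of single genes below are CPM (counts relative to a fixed library total) scaled between libraries by edgeR's trimmed mean of M values (TMM). Sums over gene lists, and the levels of the bulb gene Gad1, are CPM of the total count without that scaling. The tissue was as labelled: the 15 markers of mature olfactory sensory neurons were all tested and together reached 9256 to 19660 CPM per library. Transcripts of other tissue differed between libraries, and those of the olfactory bulb partly followed the groups. Each A+D library was above every A&D, O+C and Control library in bulb transcripts. This difference cannot be told apart from the delivery in the A/D pair. Summed over 15 neuron genes of the olfactory bulb (a list drawn up after the data were seen, 12 of which had enough counts to be tested), the level was 214.6 CPM in O&C 1 and 132.9 CPM in A+D 2, 55.1 CPM in A+D 1, 48.5 CPM in A+D 3 and 19.98 to 36.3 CPM in the other 11 libraries. Secreted odorant binding proteins of the nasal glands summed to 295.1 to 1793 CPM in 10 libraries and to 0.928 to 4.1 CPM in the other 5: O&C 1, O&C 3, A&D 1, A+D 2 and Control 1. A+D 2 also had the lowest mean correlation with the other libraries (0.968, against 0.986 at the highest) and the largest share of ribosomal protein counts (2.13%, against 0.889% at the lowest). Counts of called genes are given below with and without A+D 2 and O&C 1. Overlap between the libraries of 2 groups is given for single genes as a description. The share of all genes without overlap was not worked out.

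**Figure D1:**
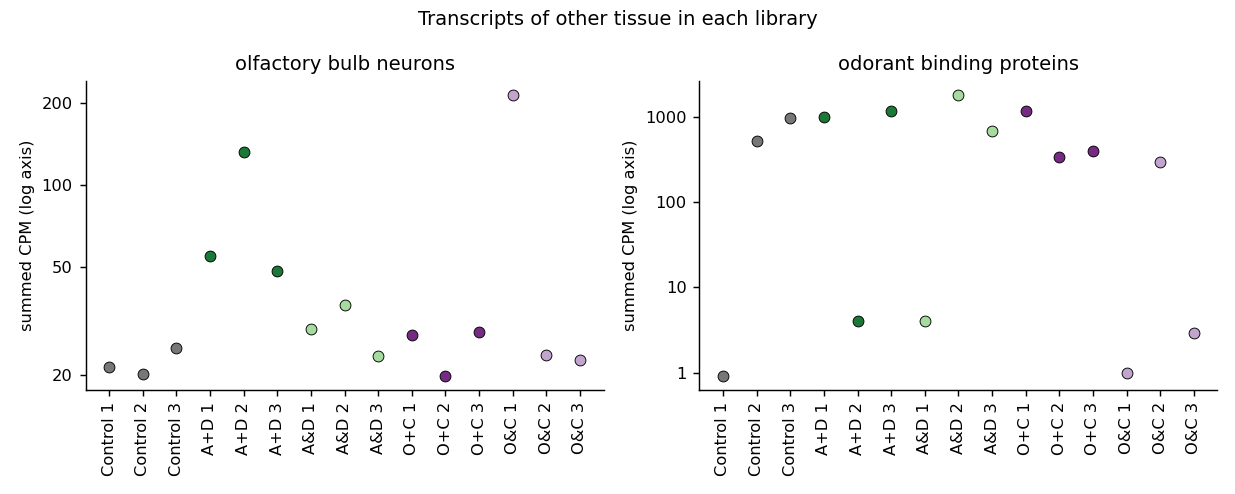
Summed CPM (vertical log axis) in each of the 15 libraries (points, coloured by group). Left, the 15 listed olfactory bulb neuron genes. Right, the 9 of 11 listed odorant binding proteins whose symbols were found in the data. O&C 1 and A+D 2 stand highest for bulb genes, and 5 libraries lie below 5 CPM for odorant binding proteins.

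The delivery effect differed between the pairs for 2 genes, and both were lower than 0. Nr4a1 (ENSMUSG00000023034), an orphan nuclear receptor and immediate early gene, had an interaction of -1.50 ± 0.21 (log2 ± SE, edgeR adjusted p = 0.0115). Olfr1426 (ENSMUSG00000044994), a class II odorant receptor, had an interaction of -1.73 ± 0.22 (edgeR adjusted p = 0.0051). Genes called lower made up 0.0104% of those tested and genes called higher 0%. In the 2 effects that enter the interaction, edgeR called 23 genes lower (0.12%) and 0 higher in A+D against A&D, and 0 in either direction in O+C against O&C. The count of 0 in the octanal and cis-3-hexenol pair stands beside 766 genes at an unadjusted p under 0.05 (3.98%), and DESeq2 called 3 higher and 6 lower there. For the 0 genes called higher in the interaction, 275 genes had an unadjusted p under 0.05 (1.43%), DESeq2 called 1 and limma-voom called 0. Without A+D 2 and O&C 1 the interaction gave 2 genes lower and 1 higher, A+D against A&D gave 28 lower, and O+C against O&C gave 5 lower. The 23 genes lower in A+D than in A&D fell to 12 without A+D 1, 10 without A+D 3 and 11 each without A&D 1 or A&D 2.

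Nr4a1 was read at 43.6, 37.9 and 31.1 CPM in Control 1 to 3. It stood at 38.5, 33.5 and 41.0 CPM in A+D and at 78.8, 90.1 and 72.3 CPM in A&D. The O/C pair gave 211, 229.5 and 293 CPM in O+C and 180.7, 163.9 and 208.9 CPM in O&C. Every A&D library was above every A+D library, and the A+D libraries lay within the range of Control. In the octanal and cis-3-hexenol pair the order was the other way, with every O+C library above every O&C library. The 2 delivery effects were -1.09 ± 0.15 (edgeR adjusted p = 0.00243) and 0.41 ± 0.15 (unadjusted p = 0.0123, not called). On the CPM scale the difference of differences was -102.8 ± 28.7 CPM (SE).

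Control averaged 37.5 ± 6.26 CPM of Nr4a1 (SD, n = 3). A+D averaged 37.6 ± 3.82 CPM and did not differ from Control in the test (0.01 ± 0.15 log2, edgeR adjusted p = 0.99). The gene rose over Control to 80.4 ± 9.0 CPM in A&D (edgeR adjusted p = 0.000283), to 244.5 ± 43.1 CPM in O+C (1.52e-08) and to 184.5 ± 22.8 CPM in O&C (5.92e-08), where 1%, 5.74% and 9.33% of all genes were called higher. These comparisons share the Control libraries. The call of Nr4a1 in the interaction was lost without A&D 2 (adjusted p = 0.0712) and without O&C 1 (adjusted p = 0.053), and with libraries scaled on the receptors alone (-1.33, adjusted p = 0.17). Its estimate lay between -1.60 and -1.37 when any 1 library was left out. With the log2 CPM of Gad1, a gene of bulb inhibitory neurons, added as a term, the estimates were -1.52 for Nr4a1 (adjusted p = 0.104) and -1.65 for Olfr1426 (adjusted p = 0.0944), and 0 genes were called. Restricted to the libraries with odorant binding protein transcripts, which leaves 1 library in O&C, they were -1.60 and -1.83 (both adjusted p = 0.104).

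**Figure D2:**
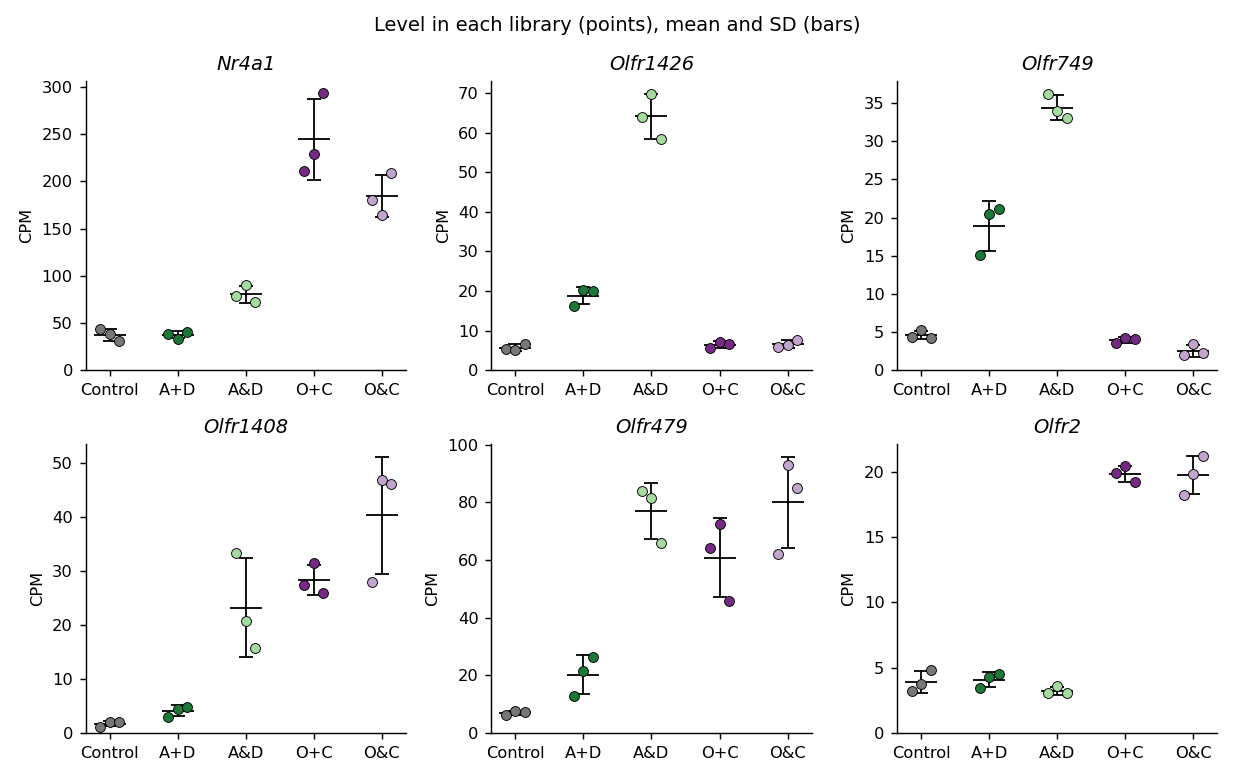
CPM (vertical axes) of Nr4a1 and 5 receptors in the 15 libraries (points) by group, with the group mean and SD (n = 3). A+D lies below A&D for Nr4a1, Olfr1426, Olfr749, Olfr1408 and Olfr479, while O+C and O&C lie close together for Olfr1426 and Olfr2.

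The promoter of Nr4a1 is shown because the gene is 1 of the 2 that were called. The 250 bases before its start in the RefSeq promoter table (GRCm38.p6, chr15:101266596-101266845, forward strand) hold the letters TGCGTCA, a variant of the cyclic AMP response element, 4 times, all on the forward strand and in capitals here.
Nr4a1: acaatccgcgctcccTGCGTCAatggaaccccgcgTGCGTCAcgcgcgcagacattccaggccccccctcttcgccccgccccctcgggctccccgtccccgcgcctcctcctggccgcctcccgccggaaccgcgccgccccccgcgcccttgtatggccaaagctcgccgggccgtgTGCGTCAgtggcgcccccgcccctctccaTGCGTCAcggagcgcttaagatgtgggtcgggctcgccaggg
The matches begin 235, 215, 71 and 42 bases before the start. On either strand, 574 of 32851 promoters of this length (1.75%) hold the letters at least once, and the promoter of Nr4a1 was the 1 with 4 or more matches. Among the 18 immediate early genes with an entry, 2 hold them, Nr4a1 and Fosb. The full palindrome TGACGTCA is in 508 promoters (1.55%), those of Btg2 and Maff among them, and not in that of Nr4a1. These are matches of letters only, and binding was not measured.

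All 23 immediate early genes on the list were tested, and Nr4a1 was the 1 called in the interaction. Estimates were below 0 for 16 of them, with a median of -0.20 against 0.005 for all genes tested. That median is 0.08 when libraries are scaled on the receptors alone, a scaling that moves the median of all genes to 0.17, so relative to all genes the list lay lower under both scalings. It was -0.44 with the Gad1 term, -0.34 without A+D 2 and O&C 1 and -0.56 in the libraries with odorant binding proteins (1 O&C library). Fos, a subunit of the AP-1 transcription factor, was at 20.4, 35.7 and 22.5 CPM in A+D, at 38.6, 48.5 and 49.0 CPM in A&D, at 38.1, 96.9 and 175 CPM in O+C and at 79.2, 69.6 and 83.4 CPM in O&C. The A+D libraries were all below the A&D libraries, while the O+C libraries spread across the whole range of O&C and beyond. The interaction of Fos, -1.21 ± 0.63, did not pass the test (unadjusted p = 0.0785). In the edgeR fit without a filter on low counts, in which 126 genes were called higher and 78 lower, Fos was called as well (adjusted p = 2.76e-07). Its estimate there was -1.22, so the p-value moved and the estimate did not. The reason was not tested, and this call is not read as a result for Fos.

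The other members of the Nr4a family, Nr4a2 (-0.41 ± 0.45) and Nr4a3 (-0.64 ± 0.74), and the zinc finger factors Egr1 (-0.51 ± 0.52) and Egr2 (-0.71 ± 0.38) were not called either. Their standard errors were larger than that of Nr4a1, which had the largest estimate of the list in size and 1 of the smaller errors. Jun, the partner of Fos in AP-1, had an estimate of 0.24 ± 0.20. None of the 13 feedback regulators of activity, such as the phosphatase genes Dusp1 and Dusp6, was called by edgeR or DESeq2 or had an unadjusted p under 0.05. Over all genes edgeR called 0.0104%, and 2.69% had such a p, so their absence says little about a list of this size.

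**Figure D3:**
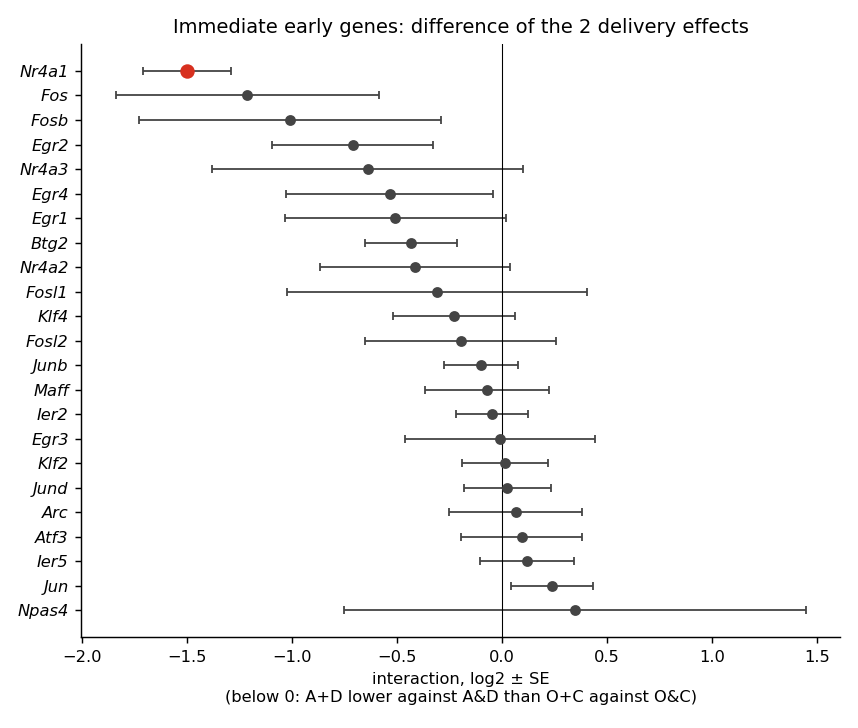
Interaction in log2 (horizontal axis, bars are SE) of the 23 immediate early genes, with Nr4a1 in red. Nr4a1 is at -1.50, and the bars of most other genes reach or come near 0.

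A list of 9 genes was made for levels in olfactory sensory neurons that follow activity over longer times. It was chosen with earlier results of these data known, so its direction here is a description. Of the 9 genes, 0 were called in the interaction by edgeR or DESeq2, and 0 had an unadjusted p under 0.05. Over all genes edgeR called 0.0104%, and 2.69% had such a p, so 0 among 9 says little about the list. Estimates were below 0 for 7 of the 9, beside 49.0% of all genes. The median of the 9 was -0.19. It was -0.48 in A+D against A&D and -0.26 in O+C against O&C, beside 0.02 and 0.00 for all genes. Kcng1, a modulatory potassium channel subunit, stood at 22.8, 20.9 and 26.1 CPM in A+D and at 35.4, 43.0 and 32.8 CPM in A&D. In the octanal and cis-3-hexenol pair it stood at 88.7, 52.5 and 56.2 CPM in O+C and at 61.0, 71.6 and 86.9 CPM in O&C. The A/D groups did not overlap and the O/C groups did, which is not read as a difference. The interaction was -0.52 ± 0.31 (unadjusted p = 0.108, not called).

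Pcdh10, an adhesion molecule of the protocadherin family, and Lrrc3b had interactions of -0.56 ± 0.48 and -0.41 ± 0.31. Counts of both were not whole in most libraries, so reads are taken to be shared with another gene. Kirrel2 and Sema7a, axon molecules set by neuronal activity, and the calcium-binding protein gene S100a5 had estimates of -0.10 ± 0.27, -0.19 ± 0.28 and 0.15 ± 0.37, each smaller than its standard error. Of 10 genes for the sorting of axons by activity, some of them on the previous list, 0 were called by edgeR or DESeq2. None had an unadjusted p under 0.05, beside 2.69% of all genes, so this list too is too short to be read from these counts.

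Olfr1426 was the receptor whose delivery effect differed between the pairs. It was at 5.42, 5.03 and 6.69 CPM in Control, at 16.3, 20.3 and 19.9 CPM in A+D and at 64.1, 69.8 and 58.4 CPM in A&D. In O+C it was at 5.6, 7.23 and 6.54 CPM and in O&C at 5.81, 6.39 and 7.61 CPM. The A&D libraries were far above the A+D libraries, and both O/C groups overlapped Control. The delivery effect was -1.77 ± 0.15 in the A/D pair (edgeR adjusted p = 1.51e-05) and -0.03 ± 0.16 in the O/C pair, where the receptor was not raised over Control (0.19 ± 0.14, adjusted p = 0.363). Olfr1426 stayed called when any 1 of the 15 libraries was left out, with estimates from -1.85 to -1.64. With libraries scaled on the receptors alone it was not called (-1.55, adjusted p = 0.17).

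Counts of Olfr1426 were whole in 1 of 15 libraries, so some of its reads are taken to be shared with another gene. In the coding sequences of GENCODE release M21, its nearest relative among 1103 receptors is Olfr1425, with 94.96% of bases identical over coding lengths of 933 each. The 60 bases in which the 2 differ most, coding positions 592 to 651, are shown with the 15 differing bases in capitals. Reads of the pair can be told apart there and at differing bases outside this stretch.
Olfr1426: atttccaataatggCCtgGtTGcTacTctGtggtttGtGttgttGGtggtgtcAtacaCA
Olfr1425: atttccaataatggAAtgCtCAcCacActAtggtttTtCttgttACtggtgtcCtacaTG
Olfr1425 was at 0.571 to 1.28 CPM in A+D and 1.38 to 2.11 CPM in A&D, and at 0.723 to 1.13 CPM in O+C and 0.451 to 0.712 CPM in O&C. Its interaction of -1.52 ± 0.56 had an unadjusted p of 0.0152 and was not called. No single gene was found whose count made up the fraction missing from that of Olfr1426 in more than 2 of the 14 libraries where it was not whole.

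A further 5 receptors were called lower in the interaction by DESeq2 and not by edgeR. Olfr749 (ENSMUSG00000059069) was at 15.2, 20.5 and 21.1 CPM in A+D and at 36.2, 34.0 and 33.0 CPM in A&D. It was at 3.53, 4.26 and 4.08 CPM in O+C and at 1.95, 3.4 and 2.23 CPM in O&C, levels within or below its 4.25 to 5.26 CPM in Control. The A&D libraries exceeded all A+D libraries and the O+C libraries exceeded all O&C libraries, so the 2 delivery effects, -0.86 ± 0.17 and 0.64 ± 0.20, had opposite signs. Neither effect was called, and the interaction was -1.51 ± 0.27 (edgeR adjusted p = 0.155, DESeq2 adjusted p = 0.000256).

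Reads of Olfr749 are shared with Olfr747, which has 98.4% of its coding bases in common. In 15 of 15 libraries neither count was whole but their sum was, to within 0.0015. The 7 bases that differ in coding positions 741 to 800 are in capitals.
Olfr749: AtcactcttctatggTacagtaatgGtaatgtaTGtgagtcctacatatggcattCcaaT
Olfr747: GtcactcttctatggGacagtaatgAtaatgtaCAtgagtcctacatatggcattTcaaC
Olfr747 itself was at 2.88 to 3.27 CPM in A+D, 2.24 to 2.44 CPM in A&D, 1.25 to 2.45 CPM in O+C and 1.78 to 2.12 CPM in O&C, with an interaction of 0.37 ± 0.36. Its A+D libraries were thus above its A&D libraries, the reverse of Olfr749, but how the shared reads were divided between the 2 was not checked.

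Olfr1408 (ENSMUSG00000062527) was raised by both pairs. It was at 3.02, 4.52 and 4.85 CPM in A+D, at 33.3, 20.6 and 15.7 CPM in A&D, at 27.4, 31.5 and 25.98 CPM in O+C and at 27.8, 46.8 and 46.1 CPM in O&C, against 1.17 to 2.07 CPM in Control. The A+D libraries stood apart from all other odour libraries, and O+C and O&C overlapped. Its delivery effects were -2.49 ± 0.29 in the A/D pair (edgeR adjusted p = 0.000778) and -0.51 ± 0.26 in the O/C pair, and the interaction was -1.98 ± 0.38 (edgeR adjusted p = 0.396, DESeq2 adjusted p = 0.000627). This difference is one of ratios: in CPM the difference of differences was -7.11 ± 8.32, within its standard error. Olfr1406, its nearest relative at 92.6% of coding bases, had an interaction of -0.49 ± 0.44.

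Olfr479 and Olfr509 share 78.1% of their coding bases, and in 8 of the 9 libraries where the count of Olfr479 was not whole the sum of both was. Olfr479 was at 12.8, 21.6 and 26.2 CPM in A+D and at 84.0, 81.4 and 65.8 CPM in A&D, and at 64.3, 72.4 and 45.7 CPM in O+C and 62.3, 92.9 and 84.8 CPM in O&C. Olfr509 was at 5.25, 12.4 and 9.18 CPM in A+D and at 51.8, 27.5 and 39.0 CPM in A&D, and at 54.3, 80.5 and 67.8 CPM in O+C and 61.9, 84.4 and 92.9 CPM in O&C. Both were low in A+D alone among the odour groups. Their interactions were -1.54 ± 0.31 and -1.90 ± 0.39, with DESeq2 adjusted p of 0.0036 and 0.00113. Olfr121 was raised by the A/D pair only, at 6.2 to 7.4 CPM in A+D and 16.2 to 18.5 CPM in A&D, with an interaction of -1.22 ± 0.27. DESeq2 called it too. Without O&C 2, edgeR called Olfr749 (-1.79) and Olfr1383 (-2.07) in addition to Nr4a1 and Olfr1426 (both receptors at adjusted p = 0.0141), so that 4 genes were lower.

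Of the 23 genes lower in A+D than in A&D, 21 were intact odorant receptors, and the rest were Nr4a1 and the pseudogene Olfr764-ps1. Intact receptors were 867 of the 19229 genes tested. This contrast is 1 of the terms of the interaction, so the following values of the 21 are a description. All 21 are class II receptors, as are 767 of the 867 receptors tested, so the class does not set them apart. Of the 21, 8 share reads with another gene. Their median was -1.77 in the A/D pair and -0.40 in the O/C pair, where 19 of 21 were below 0. On the log2 scale the interaction was below 0 in all 21, from -2.99 for Olfr904 to -0.72 for Olfr1420. In CPM the difference of differences was above 0 for Olfr1404 (2.34), Olfr13 (0.91) and Olfr1116 (0.75), each within its standard error. It was below 0 for the others, among them Olfr1383 at -1.62 ± 24.3 and Olfr803 at -0.65 ± 0.66.

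Among these 21 receptors, 11 were raised over Control by both pairs, 7 by the A/D pair only, 1 by the O/C pair only, and 2 by neither. Olfr1404 (ENSMUSG00000049456) was at 3.01 to 5.1 CPM in A+D and 13.7 to 20.4 CPM in A&D, and at 8.63 to 12.4 CPM in O+C and 19.6 to 30.5 CPM in O&C. Separate papers gave the higher level in both pairs without overlap, and the effects were -2.05 and -1.30. Its interaction was -0.75 ± 0.30 (unadjusted p = 0.0221, not called). Olfr904 had the largest estimate of the 21, at 0.897 to 1.82 CPM in A+D and 5.34 to 6.67 CPM in A&D, but it stayed at 0.0445 to 0.301 CPM in the O/C libraries, where its effect of 0.89 rests on few counts.

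The 867 intact receptors tested were grouped by whether the mean of both deliveries of a pair was above Control (edgeR adjusted p under 0.05 over all genes, 0.962% of genes for the A/D pair and 10.1% for the O/C pair). The A/D pair alone raised 50, the O/C pair alone 96, both pairs 30, and neither 691. The 2 pairs share the Control libraries, so no overlap is read from these counts. Each group is described by its medians, beside -0.02 and 0.09 for the delivery effects of the receptors raised by neither. A receptor can enter a group through 1 delivery alone. The effects of a group in a pair that raised it are therefore a description and not a test.

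Receptors raised by the A/D pair only had a median delivery effect of -0.75 in that pair, with 44 of 50 below 0, and of 0.04 in the O/C pair, with 21 of 50 below 0. Relative to the Control mean, the median of these receptors was 1.79, 1.91 and 2.04 (log2) in A+D 1 to 3 and 2.99, 2.80 and 2.67 in A&D 1 to 3. Every A&D library was above every A+D library. In the O/C libraries, where this group did not respond, the median lay between -0.52 and -0.07.

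Receptors raised by the O/C pair only had a median delivery effect of -0.35 in that pair, with 81 of 96 below 0, and of -0.17 in the A/D pair, with 67 of 96 below 0. The latter was -0.02 without A+D 2 (52 of 96 below 0) and 0.06 with the Gad1 term (42 of 96). Their medians by library were 1.76, 1.52 and 1.43 in O+C and 1.51, 2.20 and 2.19 in O&C. O&C 1 overlapped the O+C libraries and the other O&C libraries did not. Without O&C 1 the median delivery effect in the O/C pair was -0.52. O&C 1 is the library with the most bulb transcripts, and the part of these transcripts in the difference was not tested.

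The 30 receptors raised by both pairs allow the 2 delivery effects to be read in the same receptors. Each was above Control in the mean of both deliveries of either pair, so it can have entered through separate papers alone. Olfr1404, for instance, was not called higher than Control in A+D. The median effect was -1.20 in the A/D pair (29 of 30 below 0, 11 called) and -0.46 in the O/C pair (28 of 30 below 0, 0 called by edgeR), and 25 of 30 interactions were below 0, with a median of -0.60. Library medians were 1.26, 1.51 and 1.61 for A+D against 2.87, 2.71 and 2.68 for A&D, and 1.79, 2.16 and 1.83 for O+C against 2.10, 2.66 and 2.69 for O&C. A+D was the lowest group, and its gap to A&D was wider than that of O+C to O&C, which overlapped through O&C 1. Without A+D 2 and O&C 1 the medians of the 2 effects were -1.30 and -0.66, and that of the interaction -0.49. Over the leave-out fits of single libraries the median interaction ran from -0.77 to -0.42.

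The receptors of this group varied among themselves. The A/D effect ran from -2.49 for Olfr1408 to 0.06 for Olfr287, and the O/C effect from -1.30 for Olfr1404 to 0.05 for Olfr287, whose reads are shared. Olfr218, the nearest relative of Olfr1404 at 82.1% of coding bases, was at 3.23 to 10.1 CPM in A+D, 14.4 to 27.1 CPM in A&D, 13.4 to 19.2 CPM in O+C and 11.4 to 20.4 CPM in O&C. The A/D groups did not overlap and the O/C groups did. Its effects were -1.81 and 0.03, with an interaction of -1.84 ± 0.56 that was not called (unadjusted p = 0.00523). Olfr736 went the other way, with -0.57 in the A/D pair and -1.14 in the O/C pair.

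**Figure D4:**
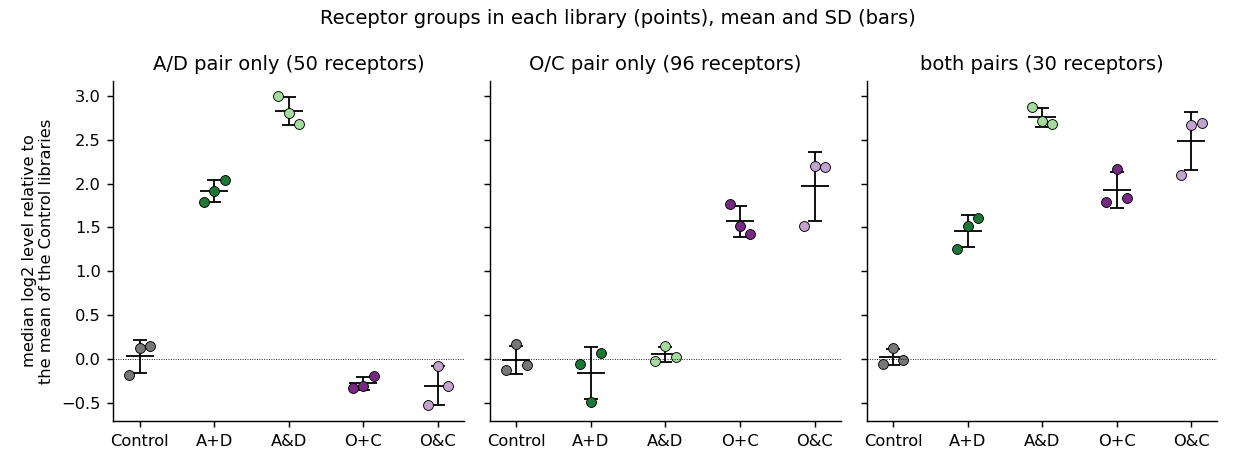
Median log2 level, relative to the mean of Control (vertical axis), of receptors raised by the A/D pair only, the O/C pair only or both pairs, in each of the 15 libraries (points) with the group mean and SD (n = 3). A&D lies above A+D without overlap in the groups that the A/D pair raised, and O&C 1 overlaps O+C in the groups that the O/C pair raised.

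Across all 867 receptors, 80 (9.23%) had an unadjusted p under 0.05 for the interaction, 70 of them lower (8.07%) and 10 higher (1.15%), beside 2.69%, 1.26% and 1.43% of all genes. The sign was the same on the CPM scale for 77 of the 80. Of the 70, 24 were receptors raised by the A/D pair only, 12 by both pairs, 3 by the O/C pair only and 31 by neither. The receptor median was -0.15 and 492 of 867 were below 0. It was 0.11 with the Gad1 term, 0.10 without A+D 2 and O&C 1 and 0.12 in the libraries with odorant binding proteins, so its sign changed under these settings. Leaving out single libraries gave medians from -0.25 to -0.003. The median standard error was 0.55 for a receptor and 0.26 for another gene.

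**Figure D5:**
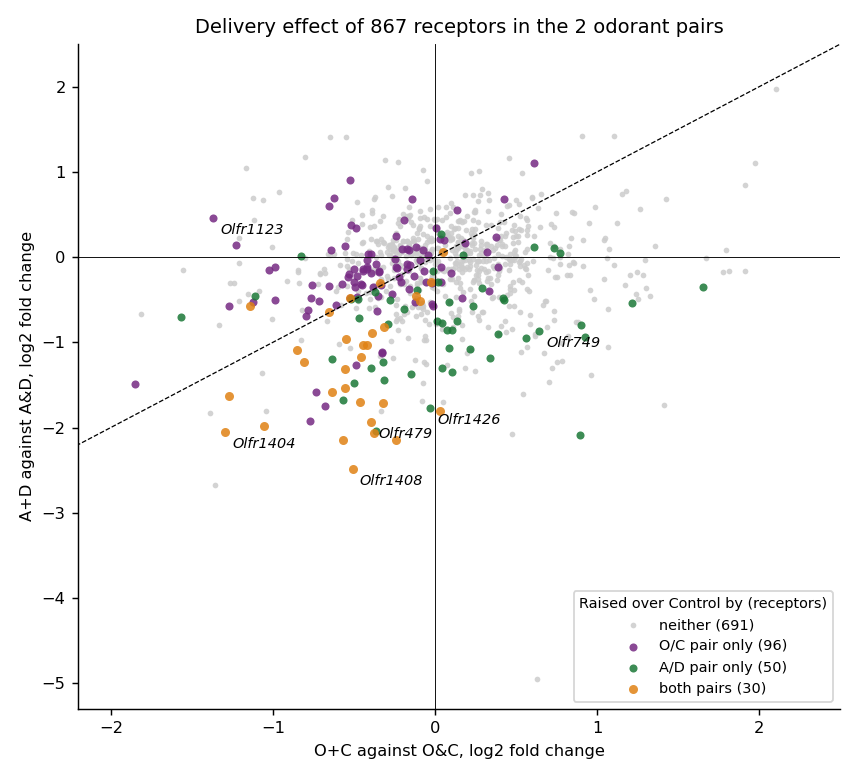
Log2 delivery effect of each of the 867 receptors in the O/C pair (horizontal axis) and the A/D pair (vertical axis), coloured by the pairs that raised it over Control. The dashed line marks equal effects, and receptors raised by the A/D pair or by both pairs lie mostly below it (the lowest point is a receptor read at under 1 CPM).

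Class I receptors, the older family often tuned to water-soluble odorants, were 90 of the 867 and class II receptors 767. The median interaction was -0.47 in class I (64 of 90 below 0) and -0.11 in class II (425 of 767 below 0). In class I, 10 receptors were lower and 1 higher at an unadjusted p under 0.05 (12.2%, beside 2.69% of all genes). In class II, 60 receptors were lower and 9 higher at such a p (8.996%), so most of this excess was shared by both classes. Of the class I receptors, edgeR and DESeq2 called 0. The class I median was -0.11 with the Gad1 term, -0.19 without A+D 2 and O&C 1 and -0.74 to -0.21 when single libraries were left out. It was above 0 (0.20) in the libraries with odorant binding protein transcripts, which leave 1 library in O&C.

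Receptors reported to bind single components of the pairs were read individually. Olfr983, a receptor for acetophenone, was at 25.2, 24.4 and 34.7 CPM in A+D and 47.2, 34.4 and 40.4 CPM in A&D, groups that overlapped by 1 library, and at 1.25 to 2.45 CPM in the O/C libraries. Its interaction was -0.62 ± 0.31 (unadjusted p = 0.0579). Olfr160, another acetophenone receptor, was at 2.83 to 4.28 CPM in A+D and 5.06 to 7.87 CPM in A&D, without overlap, with an interaction of -1.29 ± 0.58 (unadjusted p = 0.0413, not called). Olfr2, the receptor for octanal known as I7, was at 19.9, 20.4 and 19.2 CPM in O+C and 18.2, 19.9 and 21.2 CPM in O&C, and at 3.03 to 4.49 CPM in the A/D libraries. Its O/C groups overlapped fully, with a delivery effect of 0.01 ± 0.15 and an interaction of 0.34 ± 0.23 (unadjusted p = 0.167). Olfr151, the remaining acetophenone receptor on the list, had too few counts to be tested.

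In the other direction, the receptors with the smallest p-values among those above 0 were Olfr1123, Olfr193 and Olfr1155, none of which edgeR called with all libraries. All 3 were raised by the O/C pair only. Olfr1123 (ENSMUSG00000043274) was at 5.86, 5.94 and 4.78 CPM in O+C and at 6.16, 15.6 and 21.2 CPM in O&C, and at 1.97 to 4.74 CPM in the A/D libraries. O&C 1 was just above the O+C libraries and O&C 2 and 3 far above them. The interaction was 1.83 ± 0.53 (edgeR adjusted p = 1.0), and without A+D 2 and O&C 1 it was 2.45 (adjusted p = 0.0123). Olfr193 (1.31 ± 0.45) and Olfr1155 (1.37 ± 0.52) had O/C delivery effects of -0.63 and -1.23 and A/D effects of 0.69 and 0.14.

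Among genes that are not receptors, edgeR called Nr4a1 alone, and the following, named for their small p-values, were not called by it. Myh14, a nonmuscle myosin heavy chain, was at 6.93, 12.3 and 11.3 CPM in O+C and at 17.6, 22.0 and 15.4 CPM in O&C, without overlap, and at 11.4 to 12.6 CPM in A+D and 8.04 to 10.2 CPM in A&D. Its interaction was 1.22 ± 0.28 (edgeR adjusted p = 0.866, DESeq2 adjusted p = 0.0341). Adora1, an adenosine receptor gene, had an interaction of 3.26 ± 0.77 and was highest in O&C 1 (4.68 CPM) and A+D 2 (2.08 CPM), the libraries with most bulb transcripts. Gpr37l1, a receptor gene of glia, had 1.64 ± 0.40. Below 0 were Olfml2b, an extracellular matrix gene (-0.97 ± 0.25), and Pprc1, a transcriptional coactivator of mitochondrial genes (-0.99 ± 0.28).

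The share of a library's counts in intact receptor genes was 0.386% ± 0.0595 in A+D and 0.469% ± 0.0155 in A&D (SD, n = 3), a difference of -0.0837 percentage points. It was 0.468% ± 0.0148 in O+C and 0.522% ± 0.0859 in O&C, a difference of -0.0542 points, and 0.341% ± 0.0293 in Control. The difference of differences was -0.0294 points, with p = 0.72 in a two-sided exact permutation test over 400 arrangements of delivery within pairs. It turned positive without A+D 2 (0.00366) and without O&C 1 (0.0202). Mature neuron markers summed to 10090 to 13000 CPM in A+D, 12610 to 15290 CPM in A&D, 15150 to 17660 CPM in O+C and 14820 to 19660 CPM in O&C, and per 100 counts of those markers the receptors had 33.1 ± 1.31, 33.8 ± 2.93, 28.9 ± 2.07 and 29.1 ± 0.602 counts.

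Of the other fixed lists, none had a gene called in the interaction by edgeR or DESeq2 with the filter on low counts. Without it, edgeR called 9 odorant binding proteins, 4 immune and 1 vomeronasal gene lower, 3 genes of ensheathing glia higher, 3 of Bowman gland higher and 1 lower, and 10 bulb neuron genes higher. The 17 genes of olfactory transduction, from the G protein subunit Gnal to the channels Cnga2 and Ano2, had a median of -0.05 with none at an unadjusted p under 0.05, and the 15 mature neuron markers a median of -0.09, likewise with none. Relative to all genes both lay slightly lower, also under receptor scaling (0.09 and 0.06, against 0.17 for all genes), but without A+D 2 and O&C 1 they were 0.15 and 0.12, above all genes. The 24 tested genes of aldehyde and alcohol metabolism, the enzymes that can convert odorants of these kinds, had a median of 0.00, with 12 above and 12 below 0. The 22 tested genes of xenobiotic metabolism had a median of 0.00 and the 18 of the mTOR and S6 kinase pathway a median of 0.06. None of these had an unadjusted p under 0.05, beside 2.69% of all genes, a share at which short lists often hold none.

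Lists of other tissue had the widest medians. All 12 bulb neuron genes tested had interactions above 0, with a median of 5.46, 10 of them at an unadjusted p under 0.05 and 0 called by edgeR or DESeq2. Leaving out A+D 2 gave a median of 4.11, leaving out O&C 1 gave 1.1, and leaving out both gave 0.26 (8 of 12 above 0). It was -0.47 with the Gad1 term. In A+D against A&D the list had a median of 1.875. Leaving out A+D 2 keeps A+D 1 and A+D 3, whose summed bulb levels were above those of every A&D library. Gad1 was at 21.9 CPM in O&C 1 and 9.65 CPM in A+D 2, at 3.93 and 2.07 CPM in A+D 1 and A+D 3, at 1.69 CPM in A&D 2 and at 0 to 0.316 CPM elsewhere. The 12 genes of ensheathing glia, the cells that wrap the olfactory axons, were all above 0, with a median of 0.69 and 0.10 without A+D 2 and O&C 1. Odorant binding proteins had 9 of 9 tested genes below 0 and a median of -2.81, beside an O/C delivery median of 2.82, and the 3 O+C libraries all carried these transcripts while 1 of the 3 O&C libraries did. Ribosomal protein genes had a median of 0.19 over 80 genes, of which 74 were above 0. Leaving out A+D 2 turned the median to -0.17, with 4 of 80 above 0, and leaving out O&C 1 as well gave -0.22. Mitochondrial transcripts had a median of -0.56 over 15. The part of these transcripts in the receptor and Nr4a1 results was not tested beyond the fits with the Gad1 term, with the odorant binding protein term, in which both genes stayed called, and without the named libraries.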

How the data were processed

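RNA bound to immunoprecipitated phospho-S6 ribosomes was sequenced after stranded library preparation, per the labels' protocols. The deposited table holds expected counts per gene, made by the authors with STAR 2.7.10b and Salmon 1.10.1 on GRCm39, per the submitters' processing notes. The annotation and strand setting are not given in the sources used here. Of 57010 gene identifiers, 52029 matched a symbol.

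Expected counts were rounded. Genes were kept by filterByExpr (minimum count 10), libraries were scaled by TMM, and all 15 libraries entered 1 robust quasi-likelihood model with a mean per group (edgeR 4.0.16, R 4.3.3; biological coefficient of variation 0.183). Tests were two-sided with Benjamini-Hochberg adjustment over all genes tested and a threshold of 0.05. The SE is the size of the log2 estimate divided by the square root of F. Alternatives used DESeq2 1.42.0, limma 3.58.1 (voom), other scalings, filters, terms and subsets of libraries. The fitting code was tested on simulated data. Depth was similar in all libraries, and spread among them, counting error included, is in each SE.

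A count was taken as not whole beyond 0.0005, and a gene as sharing reads when whole in fewer than 8 libraries. Intact receptors were genes named Olfr with a number (1108, of which 867 passed the filter). Their class came from the family number among RefSeq synonyms, and 10 tested receptors had none. Coding sequences came from GENCODE M21 and promoters from RefSeq, both of GRCm38, so no gene positions in the files' build are given.

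Named genes were, in each direction and separately for receptors and other genes, the called genes with the largest interactions (up to 8 receptors and 7 others) at 1 CPM or more, filled to 3 by smallest p-value, plus called members of the fixed lists, receptors reported for the odorants, and 9 activity genes. Other genes are named as list members given as examples, as members of the A+D against A&D or DESeq2 calls, as nearest relatives, or after their values were seen (Olfr1383, Olfr287, Olfr218, Olfr736). The members and lists were chosen with earlier results of these data known, and the bulb list and the fits that use it were added after the counts were seen.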

Additional observations from a re-analysis of the deposited data

Results flagged for a closer look

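The delivery effect differed between the odorant pairs, by the interaction term of the edgeR fit, for Nr4a1 (-1.50 on the log2 scale, adjusted p = 0.0115) and for Olfr1426 (-1.73, adjusted p = 0.0051). For Nr4a1 the estimates of the 2 delivery effects had opposite signs, but the O/C effect was not called. Olfr1426 was not called higher than Control in the O/C pair. Both interaction calls were lost with libraries scaled on the receptors alone and with the Gad1 term. That of Nr4a1 was also lost without A&D 2 and without O&C 1. Groups of 3 libraries are too small for single libraries to be tested as outliers.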

How the results depend on the processing

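In the interaction, genes called higher and lower (main result 0 and 2, with 1 intact receptor) numbered 1 and 7 by DESeq2 (6 receptors), 126 and 78 with no filter on low counts (22 receptors; 28 of these genes had not passed the filter), 0 and 0 when libraries were scaled on the receptors alone, with the Gad1 term or with only libraries that hold Obp2a transcripts (0 receptors in each), and 1 and 2 without both A+D 2 and O&C 1 (2 receptors). In A+D against A&D (23 lower, 21 of them receptors) the calls lower numbered 43 by DESeq2 (35 receptors), 138 with no filter, beside 70 higher (46 receptors), 11 with only libraries that hold Obp2a (10 receptors), 13 scaled on the receptors (12) and 7 with the Gad1 term (6). In O+C against O&C (0 and 0) they numbered 3 higher and 6 lower by DESeq2 (5 receptors), 90 and 114 with no filter (16), 1 and 4 with only libraries that hold Obp2a (4), and 0 higher with 1 lower scaled on the receptors (1), 2 with the Gad1 term (2) and 5 without A+D 2 and O&C 1 (5). Scaling by DESeq2 size factors, limma-voom, the 12 odour libraries alone, the Obp2a term and the fit without robust estimation left each of these counts within 1.5 times. The cause of the changes was not tested.

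With the replicate number as a block, the interaction had 1 gene lower (Olfr1426; Nr4a1 at adjusted p = 0.0601) and A+D against A&D had 17. The numbers gave no pairing: 18 correlations between same-numbered libraries ran from -0.331 to 0.106, and 0 of 12 libraries correlated best with one of their own number.

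Leaving out single libraries gave 1 to 4 genes lower in the interaction (1 to 3 receptors), 10 to 28 in A+D against A&D (9 to 25) and 0 to 2 in O+C against O&C (0 to 2), with 0 higher in each. The receptor share difference ran from -0.0553 to 0.0202 points. Among 29 named genes under 812 alternatives, 767 values kept their direction and side of the threshold and 15 changed sign, 3 of them as differences in CPM (Kirrel2 17.9, Olfr1404 2.34 and Sema7a 1.47). Kirrel2 was 0.0424 with the Obp2a term, 0.0136 with Obp2a libraries only, 0.00877 scaled on receptors, 0.17 with the Gad1 term and 0.22 without A+D 2 and O&C 1, and ran from -0.30 to 0.11 when single libraries were left out. S100a5 ran from -0.10 to 0.38 and Sema7a from -0.35 to 0.0385, with 0.0154 under the Gad1 term. Groups of 3 limit every estimate here, and receptors read at a few CPM most.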
